A study of Mus musculus with 32 samples.

Results

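The difference between 2 animal facilities was compared between neuronal and non-neuronal nuclei of the mouse gut wall. All 32 libraries of the deposited count table entered the comparison, 16 neuronal and 16 non-neuronal, and 21521 of the 51912 gene identifiers in the table had enough counts to be tested. The quantity measured was an interaction: the log2 fold change of Bern against Crick in neuronal nuclei minus the same fold change in non-neuronal nuclei, averaged over colon and small intestine (SI). It is above 0 where Bern exceeded Crick by more, or fell below it by less, in neuronal nuclei.

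The mice were C57BL/6 animals kept specific pathogen-free at the University of Bern (Bern) or at the Francis Crick Institute (Crick), and their ages are not given in the labels. Mice of all groups had received an intravenous injection of AAV9-CaMKII-EGFPKASH, an adeno-associated virus in which a CaMKII promoter drives EGFP tethered to the nuclear envelope. Nuclei were taken 5 weeks later from the longitudinal muscle and attached myenteric plexus and sorted by EGFP. Positive nuclei are labelled neuronal (ColPos in colon, SiPos in SI) and negative nuclei non-neuronal (ColNeg and SiNeg), which gave 8 groups of 4 libraries. Because the virus need not reach every neuron, negative nuclei can include neurons. The labels do not say whether libraries came from single animals or pools, nor whether a number marks 1 animal, so p-values measure only the spread between these libraries. In this design facility cannot be told apart from anything else that differed between Bern and Crick libraries, their quality included.

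The myenteric plexus is the network of enteric neurons and glia between the muscle layers of the gut, and it controls motility. Enteric neurons respond to signals from the gut lumen, microbial products among them, and animal facilities differ in diet, water, husbandry and microbiota. Muscle, glia, fibroblasts, macrophages and vessels from the same layer share the animal and its environment with the neurons. A facility effect in nuclear RNA can therefore be common to both sorts or can differ between them.

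Totals ran from 2394481 to 4618379 estimated counts in Bern libraries and from 3788120 to 8350833 in Crick libraries. Thinned to an equal depth of 2394481 counts, 15126 to 21471 genes had a count in a Bern library and 22993 to 31621 in a Crick library, so the facilities did not overlap. The lowest of these counts were in Bern SiNeg, with 15126 to 17626 genes. Transcripts of 20 pan-neuronal marker genes summed to 4460 to 8330 CPM (counts per 1000000, scaled by TMM factors) in the 16 neuronal libraries. In non-neuronal libraries the sum was 1400 to 2910 CPM in Bern ColNeg, 327 to 1520 in Bern SiNeg, 403 to 815 in Crick ColNeg and 298 to 527 in Crick SiNeg. The sorts did not overlap, but Bern ColNeg held more neuronal transcript than any Crick non-neuronal library. Libraries that stood apart were Bern ColNeg 1 and 2 and Bern SiNeg 1 (neuronal sums of 2910, 2520 and 1520 CPM), Crick ColNeg 3 (macrophage markers summing to 2660 CPM) and Crick SiNeg 2 and SiPos 2 (23.6% and 15.99% of counts from mitochondrially encoded genes). The main results are also given without these 6 libraries. Xist, transcribed from the inactive X chromosome, exceeded the sum of 4 Y-linked genes in all libraries numbered 3 or 4 of Bern and 4 of Crick, which is 8 of 16 Bern and 4 of 16 Crick libraries, and in no other. The labels give no sex, and the part of this imbalance in the facility effects was not tested.

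Most of the facility effect was not called different between the sorts. By edgeR's quasi-likelihood test with Benjamini-Hochberg adjustment at 0.05, 44 of 21521 genes (0.204%) had a called interaction: 33 higher (0.153%) and 11 lower (0.0511%). At an unadjusted p under 0.05 there were 3002 genes (13.9%), and the median interaction over all genes was 0.04 log2. The facility effect itself was called for 1056 genes in neuronal nuclei (4.91%, 476 higher in Bern and 580 lower) and for 3176 genes in non-neuronal nuclei (14.8%, 1186 higher and 1990 lower). That balance moved with the processing: neuronal nuclei had 287 higher and 958 lower with upper-quartile scaling but 864 and 480 when fitted alone, and non-neuronal nuclei had 763 and 2654 with upper-quartile scaling but 1038 and 1076 at equal depth. Without the 6 libraries that stood apart the interaction was called for 143 genes, 24 of them among the 44. Limma-voom called 39 genes, 14 of them among the 44, and 7 of the 20 genes named below for their interaction. With mitochondrially encoded genes left out it was called for 47 genes, of which 28 were higher and 19 lower.

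**Figure D1:**
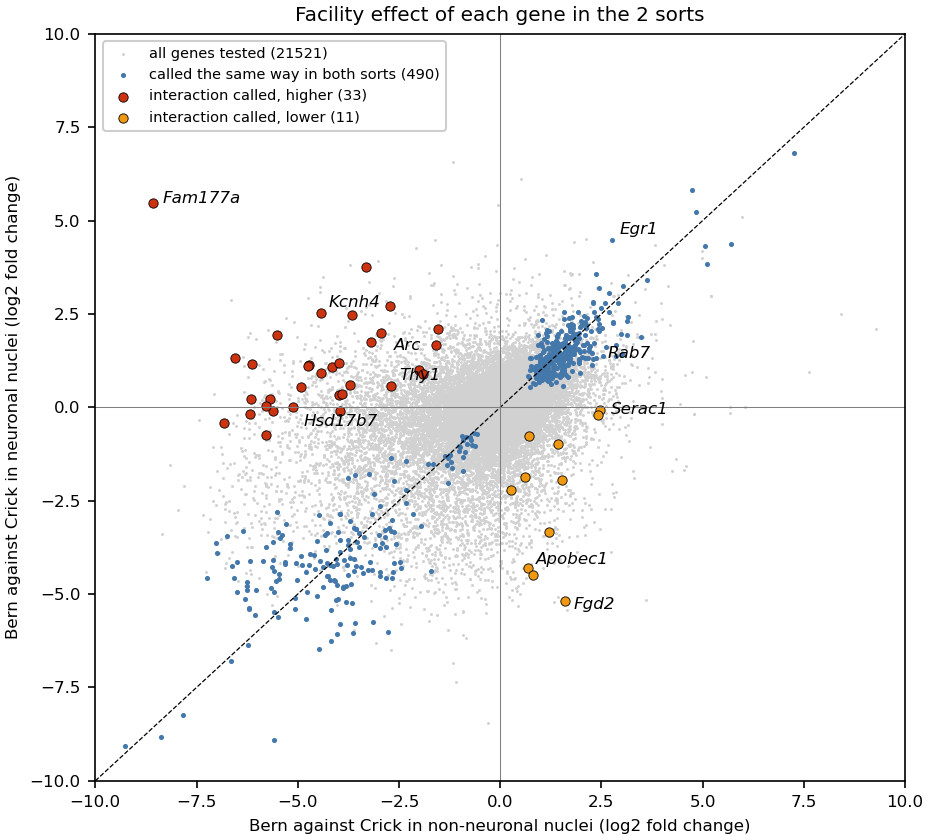
Each point is 1 of 21521 genes, with the log2 fold change of Bern against Crick in non-neuronal nuclei on the x axis and in neuronal nuclei on the y axis; the dashed line marks equal effects. The 33 genes with a higher interaction lie left of 0 on the x axis, and the 11 with a lower one below 0 on the y axis. The 490 genes called the same way in both sorts have the same sign on both axes and need not lie near the dashed line.

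The 33 higher genes were all lower in Bern non-neuronal nuclei, by fitted log2 values of -8.59 to -1.53, and 32 of the 33 passed the test there. In neuronal nuclei 6 of the 33 were called higher in Bern and 27 were not called. Of these 33 genes, 17 (51.5%) were without a count throughout Bern SiNeg, against 8.01% of all genes tested, and 9 (27.3%) had none in Bern ColNeg, against 3.16%. The 11 lower genes had fitted values below 0 in neuronal nuclei and above 0 in non-neuronal nuclei. Of them 6 were called lower in neuronal nuclei only, 3 were called higher in non-neuronal nuclei only and 2 were called in both. Bern non-neuronal libraries, where the higher genes were low, were also those in which the fewest genes were detected in SI, and the part of that in these calls was not tested.

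Kcnh4 (chr11:100740376-100759942, GRCm38), which encodes a voltage-gated potassium channel of the ELK group found in neurons, had the smallest p together with Hsd17b7. In neuronal colon nuclei it had 19.2, 33.9, 14.3 and 16.1 CPM in Bern and 0.941, 1.61, 3.04 and 1.3 CPM in Crick. Neuronal SI nuclei had 27.7, 5.97, 3.88 and 4.38 CPM in Bern and 2.09, 4.18, 0.94 and 8.02 CPM in Crick. All Bern ColPos libraries lay above all Crick ColPos libraries, whereas the SI groups overlapped. In non-neuronal nuclei Kcnh4 had no count in the 4 Bern ColNeg libraries and 0, 0.398, 0 and 0 CPM in Bern SiNeg. Crick values there were 1.56, 0.743, 1.63 and 0.944 CPM in ColNeg and 0.384, 2.08, 1.02 and 1.08 CPM in SiNeg. The level was thus low in non-neuronal nuclei of both facilities and lowest in Bern, at least 6.09-fold lower than Crick in ColNeg when the empty group is set to a floor of 3 counts in sum. The facility effect of Kcnh4 was 2.52 ± 0.66 log2 (SE) in neuronal nuclei (adjusted p = 0.0216) and -4.44 ± 0.91 in non-neuronal nuclei (adjusted p = 0.00154). Their difference was 6.95 ± 1.13 log2 (adjusted p = 0.00809), or 5.59 with the empty group at its floor, and the call was kept in each of the 32 fits that left out 1 library.

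Hsd17b7 (chr1:169949535-169969241), an enzyme of cholesterol and sex steroid synthesis, showed the non-neuronal side of this pattern. In non-neuronal SI nuclei it was without a count in Bern and had 11.7, 5.45, 11.7 and 8.92 CPM in Crick. Non-neuronal colon nuclei had 7.19, 2.3, 5.67 and 3.42 CPM in Bern and 20.3, 15.8, 14.5 and 14.4 CPM in Crick. Bern lay below Crick without overlap in both segments, at least 44.9-fold in SI. Neuronal nuclei had 94.7, 6.82, 12.2 and 69.2 CPM in Bern ColPos, 49.2, 45.3, 30.2 and 20.6 in Crick ColPos, 16.6, 21.7, 5.43 and 27.2 in Bern SiPos and 19.2, 19.8, 20.9 and 27.8 in Crick SiPos. These groups overlapped in both segments, and the 4 Bern ColPos values were widely spread. The interaction was 5.14 ± 0.85 log2 (adjusted p = 0.00809), or 3.66 at the floor, from 0.01 ± 0.45 in neuronal nuclei (adjusted p = 1) and -5.12 ± 0.69 in non-neuronal nuclei (adjusted p = 1.14e-05). The call was kept without any 1 library.

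Thy1 (chr9:44043384-44048579), a surface glycoprotein of neurons, fibroblasts and T cells, and St8sia3, a sialyltransferase of neural tissue, had the same shape in SI. In non-neuronal SI nuclei Thy1 had 0.36, 0, 0.296 and 0 CPM in Bern and 4.41, 8.05, 5.53 and 14.3 CPM in Crick. Non-neuronal colon nuclei had 31.5, 17.6, 21.4 and 97.5 CPM in Bern and 37.2, 47.6, 35.4 and 41.7 CPM in Crick. The SI groups did not overlap and the colon groups did. Neuronal levels were 31.5 ± 9.09 CPM (SD, n = 4) in Bern SiPos, 26.6 ± 7.62 in Crick SiPos, 62.2 ± 44.1 in Bern ColPos and 33.8 ± 18.3 in Crick ColPos. The interaction of Thy1 was 3.25 ± 0.64 log2 (adjusted p = 0.0286), and that of St8sia3 was 2.81 ± 0.56 (adjusted p = 0.0298). In colon alone the fitted values were 0.82 for Thy1 and 0.15 for St8sia3, against 5.68 and 5.46 in SI, and the test of the segment difference gave adjusted p = 0.14 and 0.0693. The Thy1 call was lost without Crick ColPos 1, SiNeg 4, SiPos 1 or SiPos 3 (adjusted p 0.0502 to 0.0526). That of St8sia3 was lost without these or without Crick SiNeg 3 or SiPos 2 (0.0501 to 0.0526), and St8sia3 overlaps the antisense gene St8sia3os, from which reads of this unstranded kit cannot be told apart. At equal depth St8sia3 had adjusted p = 0.0593.

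Other genes named among the 33 differed in what they encode. Rhof, a small GTPase that promotes filopodia, had an interaction of 5.85 ± 1.11 log2 (adjusted p = 0.0286). Its means in non-neuronal nuclei were 0.7 ± 0.817 CPM (SD, n = 4) in Bern ColNeg and 0.074 ± 0.148 in Bern SiNeg, against 11.1 ± 7.75 and 4.97 ± 2.93 CPM in Crick. Rhof overlaps Tmem120b on the genome. Nup210l, a nucleoporin homologue, had 0.598 ± 0.54 CPM in Bern ColNeg and no count in Bern SiNeg, against 8.75 ± 5.7 and 4.64 ± 2.04 CPM in Crick, with an interaction of 5.54 ± 1.17 (adjusted p = 0.0329). H2afx, the histone variant H2A.X of the DNA damage response, had means of 3.38 ± 3.72 and 0.0995 ± 0.199 CPM in Bern ColNeg and SiNeg and 11.3 ± 3 and 10.5 ± 6.01 CPM in the Crick groups (interaction 5.23 ± 1.11, adjusted p = 0.0329). Bern lay below Crick in non-neuronal SI nuclei for each of these 3 genes without overlap. Aldh3b1, an aldehyde dehydrogenase, had no count in either Bern non-neuronal group and was at least 10.5-fold lower than Crick in ColNeg and 14.6-fold in SiNeg (interaction 4.96 log2 at the floor, adjusted p = 0.0298). Esm1, a proteoglycan secreted by endothelium, also had no count in them, with an interaction of 4.53 log2 at the floor (adjusted p = 0.0286), and its neuronal mean in Bern SiPos of 9.99 CPM rested largely on library 4 at 27.7 CPM. Lsr, a lipoprotein receptor of tricellular junctions, had 0.0641 ± 0.128 CPM in Bern SiNeg against 7.39 ± 2.59 in Crick SiNeg (interaction 4.95 ± 1.06, adjusted p = 0.0329), while its colon non-neuronal groups overlapped. Fam177a was at 0 in some libraries and at 8.77 to 75.2 CPM in the others, and its call (adjusted p = 0.0286) went to adjusted p = 1 without Crick ColNeg 4, the only Crick ColNeg library with a count, at 52.6 CPM.

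Each of the calls in the preceding group lay close to the threshold. Those of Rhof and Esm1 were lost without Crick ColPos 1, SiPos 1 or SiPos 3 (adjusted p 0.0502 to 0.0526), and those of Aldh3b1 without 5 Crick libraries, these 3 and ColPos 2 and SiPos 4 (0.0502 to 0.0544). Nup210l, H2afx and Lsr lost theirs without any of 14 libraries each, at adjusted p of up to 0.0665, 0.0635 and 0.0715, and Nup210l also without the 6 libraries that stood apart (0.0662). The interaction of these genes kept its sign in all the fits that were run. Limma-voom did not call Fam177a (adjusted p = 0.162), Aldh3b1 and Nup210l (both 0.0806) or Lsr (0.0529).

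**Figure D2:**
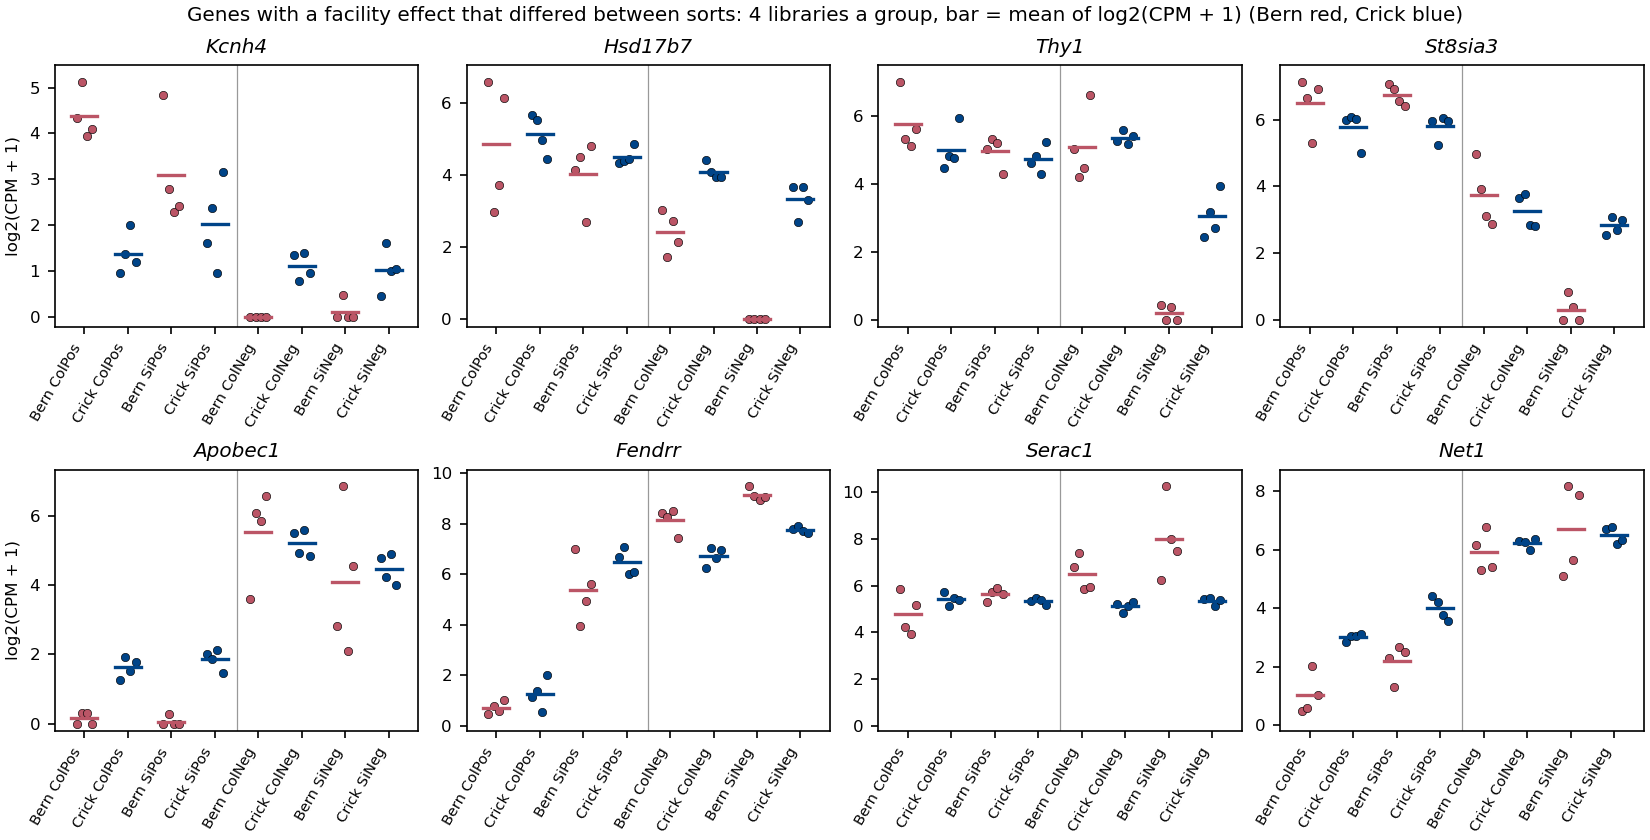
Each panel shows log2(CPM + 1) of 1 gene in 4 libraries a group, with bars at the group mean; neuronal groups stand left of the grey line and non-neuronal groups right of it, Bern in red and Crick in blue. Kcnh4, Hsd17b7, Thy1 and St8sia3 (top) are at or near 0 in Bern SiNeg, while Apobec1 and Net1 (bottom) lie below Crick without overlap left of the line and overlap right of it.

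Apobec1 (chr6:122577792-122602444), the cytidine deaminase that edits apolipoprotein B messenger RNA and is active in gut epithelium and myeloid cells, was the clearest of the 11 lower genes. In neuronal colon nuclei it had 0, 0.244, 0.255 and 0 CPM in Bern and 1.41, 2.82, 1.87 and 2.45 CPM in Crick. Neuronal SI nuclei had 0, 0.213, 0 and 0 CPM in Bern and 3.01, 2.68, 3.38 and 1.75 CPM in Crick. The facilities did not overlap in either segment. These values were under those of non-neuronal nuclei, except that Crick SiPos 3 (3.38 CPM) exceeded Bern SiNeg 3 (3.25 CPM). In non-neuronal nuclei Apobec1 had 11, 66.7, 56.7 and 94.3 CPM in Bern ColNeg, 44.1, 29.2, 47.4 and 27.4 in Crick ColNeg, 6.12, 114, 3.25 and 22.6 in Bern SiNeg and 26.3, 17.7, 28.5 and 15 in Crick SiNeg. Both non-neuronal pairs of groups overlapped, and the Bern values were the more widely spread. The interaction was -4.98 ± 0.92 log2 (adjusted p = 0.0281), from -4.30 ± 0.76 in neuronal nuclei (adjusted p = 0.000752) and 0.68 ± 0.50 in non-neuronal nuclei (adjusted p = 0.384), and it was kept without any 1 library. Limma-voom gave adjusted p = 0.0749.

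Several of the other lower genes were low in neuronal nuclei and mainly expressed in non-neuronal ones. Net1, an exchange factor for the GTPase RhoA, had 0.384, 0.487, 3.05 and 1.04 CPM in Bern ColPos against 6.12, 7.24, 7.25 and 7.64 in Crick ColPos. In SiPos it had 3.89, 1.49, 5.43 and 4.67 CPM in Bern against 20.4, 17.7, 12.6 and 10.8 in Crick. Bern lay below Crick without overlap in both, whereas the non-neuronal groups overlapped (65 ± 32.4 and 74.8 ± 8.64 CPM in ColNeg, 152 ± 130 and 91.8 ± 18.4 in SiNeg, Bern first). Net1 fell by 2.22 ± 0.41 log2 in neuronal nuclei (adjusted p = 0.00127) and had an interaction of -2.49 ± 0.55 (adjusted p = 0.0359), which was lost without any of 16 libraries (adjusted p 0.051 to 0.077) and with limma-voom (0.164). Fam129a, a stress-induced regulator of translation, had means of 5.07 ± 4.98 and 8.71 ± 5.36 CPM in Bern ColPos and SiPos against 29 ± 30.9 and 20.7 ± 3.34 CPM in Crick, with an interaction of -2.48 ± 0.53 (adjusted p = 0.0333). Fgd2, an exchange factor for Cdc42 expressed in antigen-presenting cells, had no count in Bern neuronal nuclei and 1.42 ± 2.25 and 0.622 ± 0.668 CPM in Crick ColPos and SiPos (interaction -3.77 log2 at the floor, adjusted p = 0.0329). Mirt1, a long non-coding RNA, had an interaction of -4.55 ± 0.99 (adjusted p = 0.0345). The calls of Fam129a, Fgd2 and Mirt1 were lost without any of 10, 10 and 12 libraries, and that of Fam129a also without the 6 that stood apart (0.0529). Limma-voom gave them adjusted p = 0.0888, 0.138 and 0.14, and equal depth 0.0555, 0.0555 and 0.0728.

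Markers of other cells did not all move with these neuronal values. Markers of gut epithelium summed to 15 to 17.9 CPM in Bern ColPos, 32.6 to 81.5 in Crick ColPos, 23.6 to 34.9 in Bern SiPos and 43.9 to 117 in Crick SiPos, without overlap between the facilities. Macrophage and antigen presentation markers summed to 11.7 to 23.7 CPM in Bern ColPos, 13.4 to 29.8 in Crick ColPos, 14.7 to 37.5 in Bern SiPos and 29.6 to 53.5 in Crick SiPos. These groups overlapped in both segments. Fibroblast and PDGFRA cell markers went the other way in colon, with 80.9 to 202 CPM in Bern ColPos and 50 to 61.1 in Crick ColPos. In SI they overlapped (85.1 to 209 in Bern SiPos, 130 to 256 in Crick SiPos). Smooth muscle markers overlapped in both segments. Krt19, an epithelial keratin, had no count in Bern ColPos and 0.518, 0, 0 and 0 CPM in Bern SiPos, against 1.88, 0.603, 1.64 and 4.04 CPM in Crick ColPos and 0.695, 1.51, 1.5 and 2.26 in Crick SiPos. All Crick neuronal libraries lay above all Bern ones for Krt19. Whether RNA of other cells has a part in the low neuronal counts of Apobec1, Fgd2 or Net1 was not tested, and in sorted nuclei fewer nuclei of a type and less RNA per nucleus cannot be told apart.

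Fendrr and Serac1 differed in the opposite way, through higher levels in Bern non-neuronal nuclei. Fendrr, a long non-coding RNA of lateral mesoderm transcribed next to Foxf1, had 338, 304, 364 and 173 CPM in Bern ColNeg against 74.1, 130, 97.5 and 124 in Crick ColNeg. SiNeg libraries had 710, 537, 482 and 528 CPM in Bern and 222, 239, 206 and 195 in Crick. Bern exceeded Crick without overlap in both segments. Neuronal SI nuclei had 126, 14.5, 29.8 and 48.2 CPM in Bern and 101, 133, 63.4 and 67.2 in Crick, and neuronal colon nuclei stayed under 3.1 CPM in both. Fendrr rose by 1.43 ± 0.30 log2 in non-neuronal nuclei (adjusted p = 0.00168) and was -0.98 ± 0.37 in neuronal nuclei (adjusted p = 0.112). Its interaction of -2.41 ± 0.47 (adjusted p = 0.0286) was lost without Crick ColPos 1 or SiPos 1 (0.0519 and 0.0526) and without the 6 libraries that stood apart (0.0527), and limma-voom gave 0.0843.

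Serac1, a protein of phospholipid remodelling and cholesterol trafficking, had 109, 165, 57.2 and 60.7 CPM in Bern ColNeg and 36.7, 27.3, 34.1 and 38.5 in Crick ColNeg. SiNeg libraries had 74.6, 1210, 252 and 177 CPM in Bern and 42.4, 43.1, 34 and 40.7 in Crick. Bern was higher without overlap in both, with library 2 of Bern SiNeg far above the rest. Neuronal nuclei had 30.8 ± 19.3 and 42.5 ± 7.31 CPM in Bern and Crick ColPos and 49.3 ± 8.55 and 39.7 ± 3.65 in SiPos. The interaction of Serac1 was -2.54 ± 0.50 (adjusted p = 0.0286), lost without Crick ColPos 1, SiPos 1 or SiPos 3 (0.0502 to 0.0526) and with limma-voom (0.111), and the gene overlaps Synj2. Art3, an ADP-ribosyltransferase family member that overlaps Cxcl10, was called in both sorts, -1.95 ± 0.59 in neuronal nuclei (adjusted p = 0.0473) and 1.51 ± 0.40 in non-neuronal nuclei (adjusted p = 0.0098), with an interaction of -3.47 ± 0.71 (adjusted p = 0.0298). Its call was lost without any of 5 Crick libraries (ColPos 1 and 2, SiNeg 4, SiPos 1 and 3, adjusted p up to 0.0556) and with limma-voom (0.0838).

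In all, 30 of the 44 called genes overlap another annotated gene. The share among all genes tested was not counted, so this does not set the called genes apart. Among them Gm37376 overlaps the Malat1 locus, and reads of the pair cannot be told apart. The number of calls also depended on single libraries, as the plot of calls by left-out library shows. It was 3 without Crick ColPos 1 or SiPos 1 and 4 without Crick SiPos 3. Leaving out any of 13 Crick libraries (all but ColNeg 2, ColPos 4 and SiNeg 2) gave 3 to 28 calls, and leaving out any of 8 Bern libraries (SiNeg 1 to 4, ColNeg 1 and 2, ColPos 4, SiPos 3) gave 70 to 246, the most without Bern SiNeg 1. Libraries of a group correlated at 0.644 to 0.745 in Bern ColNeg and 0.631 to 0.693 in Bern SiNeg. Crick ColNeg and SiNeg had 0.83 to 0.933 and 0.846 to 0.955. In ColPos and SiPos the ranges were 0.738 to 0.831 and 0.763 to 0.893 in Bern, and 0.846 to 0.978 and 0.846 to 0.962 in Crick. The fit used 1 shared estimate of the spread over all groups, and the part of this in the counts was not tested. Where a call was lost, the adjusted p reached 1 for Fam177a, 0.681 for 4932431P20Rik and 0.13 for 2810454H06Rik, and at most 0.0891 for any other of the 44 genes.

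**Figure D3:**
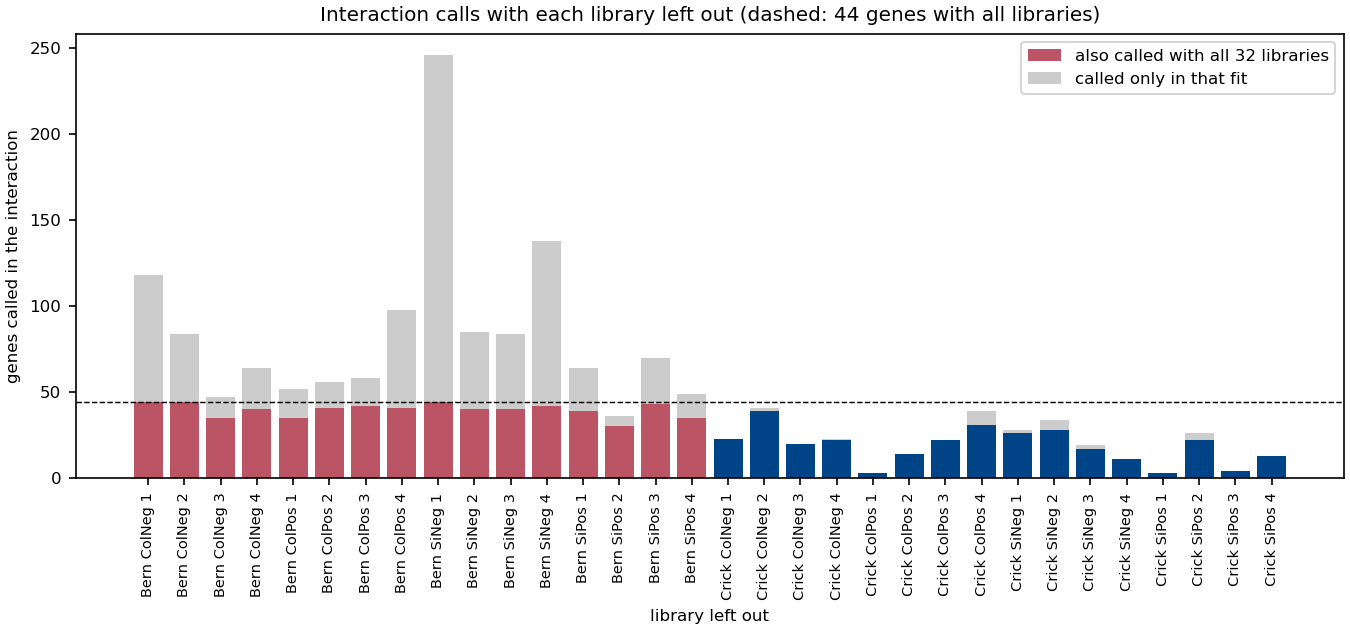
Bars give the number of genes with a called interaction when 1 of the 32 libraries was left out (x axis), the coloured part (red for Bern, blue for Crick) being genes that were also called with all libraries and the grey part genes called only in that fit. The dashed line marks the 44 genes called with all libraries; counts run from 3 to 246.

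Taken by segment, 1 gene was called in colon (0.00465% of those tested), Gm37376, and 32 genes in SI (0.149%, 30 higher and 2 lower). Unadjusted p-values under 0.05 numbered 2219 in colon and 2860 in SI. Leaving out 1 library gave 0 to 8 calls in colon and 4 to 306 in SI. Fitted alone or at equal depth the SI libraries gave fewer calls, with counts in the part on processing. The difference between the segments was called for 9 genes (0.0418%), all lower, so that the interaction was further above 0 in SI than in colon. For 4 genes named here, the colon value was below 0 and the SI value above it.

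Dscaml1, a cell adhesion molecule of the immunoglobulin superfamily expressed in neurons, had 42.4, 46.6, 53.8 and 18 CPM in Bern ColNeg and 4.45, 7.25, 4.5 and 8.61 CPM in Crick ColNeg. In SiNeg it had 0, 0, 0 and 0.256 CPM in Bern and 1.34, 2.6, 2.46 and 5.81 CPM in Crick. Bern was thus above Crick in colon and below it in SI, without overlap in either. Neuronal means lay between 79.2 and 102 CPM in all 4 groups. The segment difference of Dscaml1 was -7.60 log2 (adjusted p = 0.00465), kept without any 1 library, with adjusted p = 0.0956 by limma-voom. Gria4, an AMPA-type glutamate receptor subunit, had 121, 110, 73.1 and 49.3 CPM in Bern ColNeg, 32.1, 41.1, 21.5 and 19.8 in Crick ColNeg, 1.8, 4.38, 2.07 and 1.03 in Bern SiNeg and 8.64, 5.45, 8.81 and 18.5 in Crick SiNeg. It showed the same order without overlap, and its difference was -4.36 (adjusted p = 0.0276), lost without Crick ColNeg 3 or SiNeg 4 (adjusted p 0.053 to 0.0577) and with limma-voom (0.185). Crmp1, a collapsin response mediator of axon guidance, and Prr36 had differences of -4.77 (adjusted p = 0.0365) and -6.48 (adjusted p = 0.0388), which were lost without any of 14 and 19 libraries, that of Prr36 also without the 6 that stood apart (0.0604). Both were also lost with limma-voom (0.33 and 0.185), with RLE factors (both 0.0519) and without mitochondrially encoded genes (0.0522 and 0.0544), and Crmp1 at equal depth (0.0804). The summed pan-neuronal markers stood in the same order in colon, with 1400 to 2910 CPM in Bern ColNeg against 403 to 815 in Crick ColNeg, but not in SI, and their part in these 4 values was not tested.

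More genes were called the same way in both sorts than were called in the interaction. The interaction is a difference of the 2 effects and has larger standard errors. The counts of calls therefore do not rank shared against differing effects. Of the genes called in each sort, 497 were called in both, which is 47.1% of the neuronal calls and 15.6% of the non-neuronal calls. Of these, 490 had the same direction, 305 higher in Bern and 185 lower, and 7 had opposite directions. The 7 are Kcnh4, Fam177a, Znhit1, Gm26904, 4932431P20Rik, Art3 and Gm37376, and all 7 were among the 44. None of the 490 was called in the interaction by edgeR, and 38 had an unadjusted p under 0.05 there. DESeq2 called 14 of the 831 genes that it called the same way in both sorts, and limma-voom 1 of 708. A call missed is not equality: the 95% interval of the interaction lay within 1 log2 unit of 0 for 106 of the 490 (21.6%) and for 5.36% of all genes tested, and the median half-width over all genes was 1.76 log2. The comparisons of the sorts share no library, and across 21521 genes their fold changes correlated with Pearson r = 0.39 and Spearman rho = 0.38, a description over genes that share libraries within each sort. Without the 6 libraries that stood apart 273 genes were called the same way in both, and with upper-quartile scaling, which moved the median of all genes to -0.36 in non-neuronal nuclei, 504 were, 177 of them higher.

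Examples with narrow intervals follow, chosen after their values were seen. Rab7, the small GTPase of late endosomes and lysosomes, had 159, 171, 312 and 133 CPM in Bern ColPos, 45, 44.5, 54.8 and 57.1 in Crick ColPos, 335, 177, 136 and 135 in Bern SiPos and 46.1, 68.5, 48.5 and 30.6 in Crick SiPos. Non-neuronal nuclei had 173, 396, 348 and 259 CPM in Bern ColNeg, 77.9, 84.4, 92.6 and 103 in Crick ColNeg, 413, 344, 239 and 398 in Bern SiNeg and 61.2, 108, 71.5 and 71.2 in Crick SiNeg. Every Bern group lay above its Crick group. Rab7 rose by 1.98 ± 0.25 log2 in neuronal and 1.94 ± 0.24 in non-neuronal nuclei, with an interaction of 0.04 ± 0.33. Tpp1, a lysosomal peptidase, rose by 1.38 ± 0.19 and 1.40 ± 0.19 (interaction -0.02 ± 0.27), with means of 278, 229, 271 and 320 CPM in Bern ColPos, SiPos, ColNeg and SiNeg and of 92.6, 102, 103 and 122 in Crick. Ahnak, a very large scaffold protein, fell by 1.28 ± 0.19 in neuronal and by 1.25 ± 0.19 in non-neuronal nuclei (interaction -0.04 ± 0.26). Each of these calls was kept without any 1 library and without the 6 that stood apart.

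**Figure D4:**
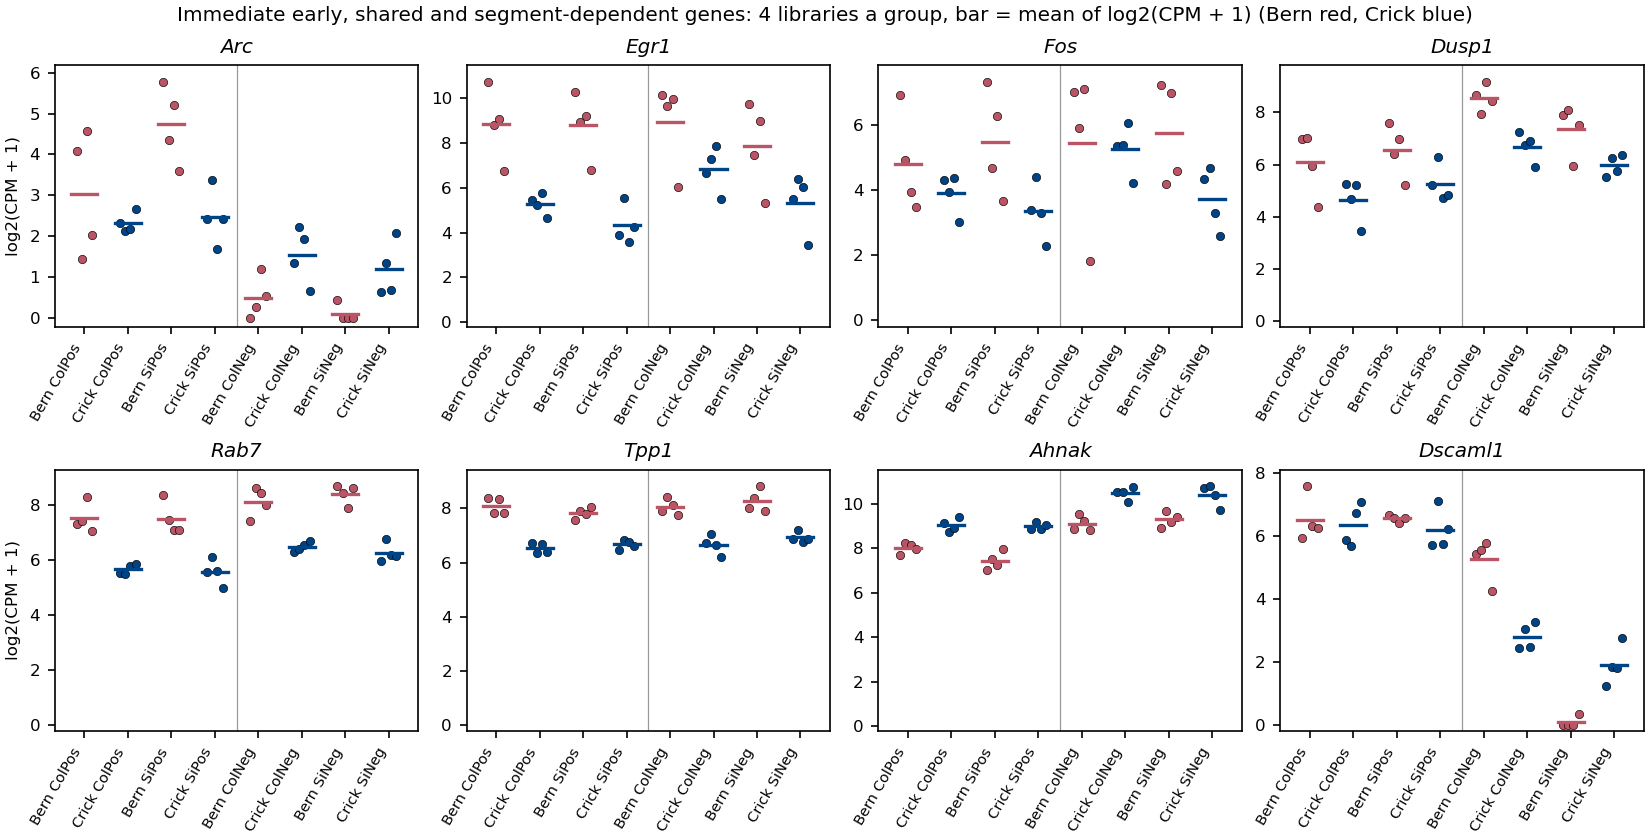
Each panel shows log2(CPM + 1) of 1 gene in 4 libraries a group, with bars at the group mean, neuronal groups left of the grey line, Bern in red and Crick in blue. Rab7 and Tpp1 are higher and Ahnak lower in Bern on both sides of the line, Egr1 is higher in Bern on both sides with wide spread, and Arc and Dscaml1 differ between the sides.

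Immediate early genes, which neurons and other cells transcribe within minutes of stimulation or handling, were the only one of 35 gene lists with a member called in the interaction with all libraries. That member was Arc (chr15:74669083-74672570), a postsynaptic protein whose transcription follows neuronal activity. It was the 1 call among 409 genes tested in any list, beside 0.204% of all genes tested, so it does not set this list apart. Arc had 16.1, 1.71, 22.7 and 3.12 CPM in Bern ColPos, 4, 3.42, 3.51 and 5.33 in Crick ColPos, 53.7, 19.6, 35.7 and 11.1 in Bern SiPos and 4.4, 9.37, 2.26 and 4.38 in Crick SiPos. Non-neuronal nuclei had 0, 0.209, 1.29 and 0.457 CPM in Bern ColNeg, 1.56, 3.72, 2.86 and 0.59 in Crick ColNeg, 0.36, 0, 0 and 0 in Bern SiNeg and 0.576, 1.56, 0.615 and 3.24 in Crick SiNeg. Arc was higher in Bern SiPos and lower in Bern SiNeg without overlap, and the colon groups overlapped in both sorts. Its effect was 1.98 ± 0.64 log2 in neuronal nuclei (adjusted p = 0.0634) and -2.94 ± 0.79 in non-neuronal nuclei (adjusted p = 0.0114). The interaction of 4.92 ± 1.02 (adjusted p = 0.03) was lost without any of 8 Crick libraries (ColNeg 3, ColPos 1 to 3, SiNeg 4, SiPos 1, 3 and 4, adjusted p 0.0507 to 0.0603), and limma-voom gave 0.0529.

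Of 17 immediate early genes tested, 5 were called higher in Bern neuronal nuclei (Egr1, Fos, Dusp1, Junb and Btg2) and 1 lower (Egr2), against 2.21% and 2.7% of all genes. Limma-voom called Egr1 and Egr2 there (adjusted p = 0.00863 and 0.0208). It did not call Fos (0.22), Dusp1 (0.0537), Junb (0.0512) or Btg2 (0.0702). In non-neuronal nuclei 4 were called higher (Egr1, Fos, Dusp1 and Npas4) and 2 lower (Arc and Atf3), against 5.51% and 9.25%. The list's median interaction was 0.92 log2, also with Egr2 at its floor, beside 0.04 over all genes. Without the 6 libraries that stood apart it was 1.99, and the non-neuronal calls of Fos and Atf3 were lost (adjusted p = 0.119 and 0.111). Egr1, a zinc-finger transcription factor, had 1700, 455, 546 and 107 CPM in Bern ColPos and 42.8, 36.6, 53.6 and 23.9 in Crick ColPos. In SiPos it had 1230, 498, 601 and 110 CPM in Bern and 14.1, 45.5, 11.1 and 17.9 in Crick. All Bern neuronal libraries lay above all Crick ones. Non-neuronal nuclei had 1150, 806, 1020 and 65.3 CPM in Bern ColNeg, 100, 157, 233 and 44.1 in Crick ColNeg, 873, 174, 509 and 39.5 in Bern SiNeg and 44.1, 83.1, 63.9 and 9.87 in Crick SiNeg. Here the groups overlapped, and in each of the 4 Bern groups library 1 was the highest and library 4 the lowest. The labels do not say whether libraries of 1 number share an animal. The tests within each sort took colon and SI libraries as separate. Egr1 rose by 4.47 ± 0.61 log2 in neuronal nuclei (adjusted p = 3.53e-05) and by 2.75 ± 0.56 in non-neuronal nuclei (adjusted p = 0.00129). Its interaction of 1.72 ± 0.75 (95% interval 0.20 to 3.24) did not pass (adjusted p = 0.287).

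Fos, a subunit of the transcription factor AP-1, rose by 2.11 ± 0.60 in neuronal and 1.73 ± 0.59 in non-neuronal nuclei (adjusted p = 0.0354 and 0.0442), and its interaction was 0.39 ± 0.82. These Fos calls were lost without any of 12 and 10 libraries (adjusted p up to 0.139 and 0.0841) under upper-quartile scaling (0.0546 and 0.0805) and with limma-voom (0.22 and 0.205). Dusp1, a phosphatase that inactivates MAP kinases, rose by 1.52 ± 0.36 and 1.71 ± 0.36 (adjusted p = 0.0124 and 0.00185), with an interaction of -0.20 ± 0.50 and a 95% interval of -1.22 to 0.83. Junb, another AP-1 subunit, rose by 2.89 ± 0.75 in neuronal nuclei (adjusted p = 0.0202, or 0.0526 without Bern ColPos 1) and was 1.03 ± 0.70 in non-neuronal nuclei. Btg2, an antiproliferative gene, rose by 1.76 ± 0.38 in neuronal nuclei (adjusted p = 0.00488) and was 0.84 ± 0.36 in non-neuronal nuclei. Npas4, a factor induced by neuronal activity, rose by 1.21 ± 0.36 in non-neuronal nuclei (adjusted p = 0.0193, or 0.0694 without Bern ColNeg 1) and was 0.84 ± 0.35 in neuronal nuclei. Interactions of Junb, Btg2 and Npas4 did not pass (adjusted p = 0.41, 0.437 and 0.816).

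The stretch before the transcription start is shown for Fos and Dusp1, which, like Egr1 (not shown), were called higher in Bern in both sorts. It is taken from RefSeq on GRCm38.p6, 250 bases 5′ to 3′ on the gene's strand, chr12:85473640-85473889 (plus strand) for Fos and chr17:26508473-26508722 (minus strand) for Dusp1. Capitals mark TGACG, the core of the cyclic AMP response element, searched on both strands.
Fos: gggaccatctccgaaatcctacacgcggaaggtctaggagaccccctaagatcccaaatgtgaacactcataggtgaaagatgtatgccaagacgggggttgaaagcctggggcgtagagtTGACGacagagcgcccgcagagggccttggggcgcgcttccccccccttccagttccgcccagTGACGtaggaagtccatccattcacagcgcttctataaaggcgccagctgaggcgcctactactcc
Dusp1: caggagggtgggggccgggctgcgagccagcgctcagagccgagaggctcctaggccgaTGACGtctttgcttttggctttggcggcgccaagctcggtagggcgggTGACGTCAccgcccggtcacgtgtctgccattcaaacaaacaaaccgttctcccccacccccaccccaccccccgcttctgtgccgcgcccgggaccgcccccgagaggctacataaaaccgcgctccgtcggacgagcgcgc
Counted on both strands with overlaps, the Fos window holds 2 matches and the Dusp1 window 3, of which 2 overlap on opposite strands. Of 32851 promoter windows of this length 17.8% hold at least 1, 3.9% at least 2 and 0.688% at least 3. A match is a description of the letters and not a site.

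The pan-neuronal, synaptic, cholinergic and neuron identity lists held genes called higher in Bern in each sort. Many of their non-neuronal calls depended on the libraries that stood apart. Lists of nitrergic, sensory, potassium channel, sodium and calcium channel, transmitter receptor and axon guidance genes had no call in neuronal nuclei. In non-neuronal nuclei the nitrergic, axon guidance and both channel lists had calls in both directions. Of 20 pan-neuronal markers 2 were called higher in Bern neuronal nuclei (Snap25 and Ncam1) and 5 in non-neuronal nuclei (Snap25, Ncam1, Celf4, Stmn2 and Elavl4), none lower, against 2.21% and 5.51% of all genes called higher. The neuronal call of Ncam1 was lost without any of 14 libraries (adjusted p 0.0517 to 0.0972). Of 20 genes of the synaptic vesicle and its release 4 and 6 were higher and none lower, but without the 6 libraries that stood apart 2 were higher and 5 lower in non-neuronal nuclei and 4 had an interaction called higher. Upper-quartile scaling left no pan-neuronal call in neuronal nuclei, and 2 synaptic genes higher and 1 lower. In non-neuronal nuclei Elavl4 lost its call without Bern SiNeg 1 (adjusted p = 0.273) and Stmn2 without any of 9 libraries (up to 0.749), with 2 fits of the other sign. Celf4, Elavl4 and Stmn2 were also not called without the 6 libraries (0.196, 0.694 and 0.372). Snap25, a membrane fusion protein of the synapse, had 780, 1460, 1500 and 1460 CPM in Bern ColPos, 713, 770, 616 and 601 in Crick ColPos, 2070, 2080, 2160 and 1670 in Bern SiPos and 553, 380, 643 and 543 in Crick SiPos. Bern was higher without overlap in both neuronal pairs. Non-neuronal nuclei had 617, 575, 291 and 326 CPM in Bern ColNeg, 85, 70.1, 36.2 and 48.5 in Crick ColNeg, 475, 2.79, 32.5 and 73.1 in Bern SiNeg and 11.9, 11.9, 17 and 27.3 in Crick SiNeg. Library 1 of Bern SiNeg was far above the others. Snap25 rose by 1.43 log2 in neuronal nuclei (adjusted p = 0.0425, lost without any of 18 libraries at 0.0526 to 0.102) and by 3.00 in non-neuronal nuclei, and its interaction was -1.57 ± 0.59 (adjusted p = 0.207). Vamp1, a vesicle protein of the same fusion complex, rose by 1.28 and 1.38 log2 (adjusted p = 0.00189 and 0.000345, with an interaction of -0.10), kept without any 1 library. The median interaction of the pan-neuronal list was -0.22 log2. Without the 6 libraries that stood apart it was 1.23, with 2 members called higher, and the list's non-neuronal median went from 0.55 to -0.46, with 2 members called higher and 5 lower. Bern ColNeg 1 and 2 and Bern SiNeg 1 are among these 6 because their sums of the same pan-neuronal markers were high. Leaving them out lowers the Bern non-neuronal values of neuronal genes by that choice. The shifts of this list and of the synaptic genes are therefore no finding about the facilities.

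**Figure D5:**
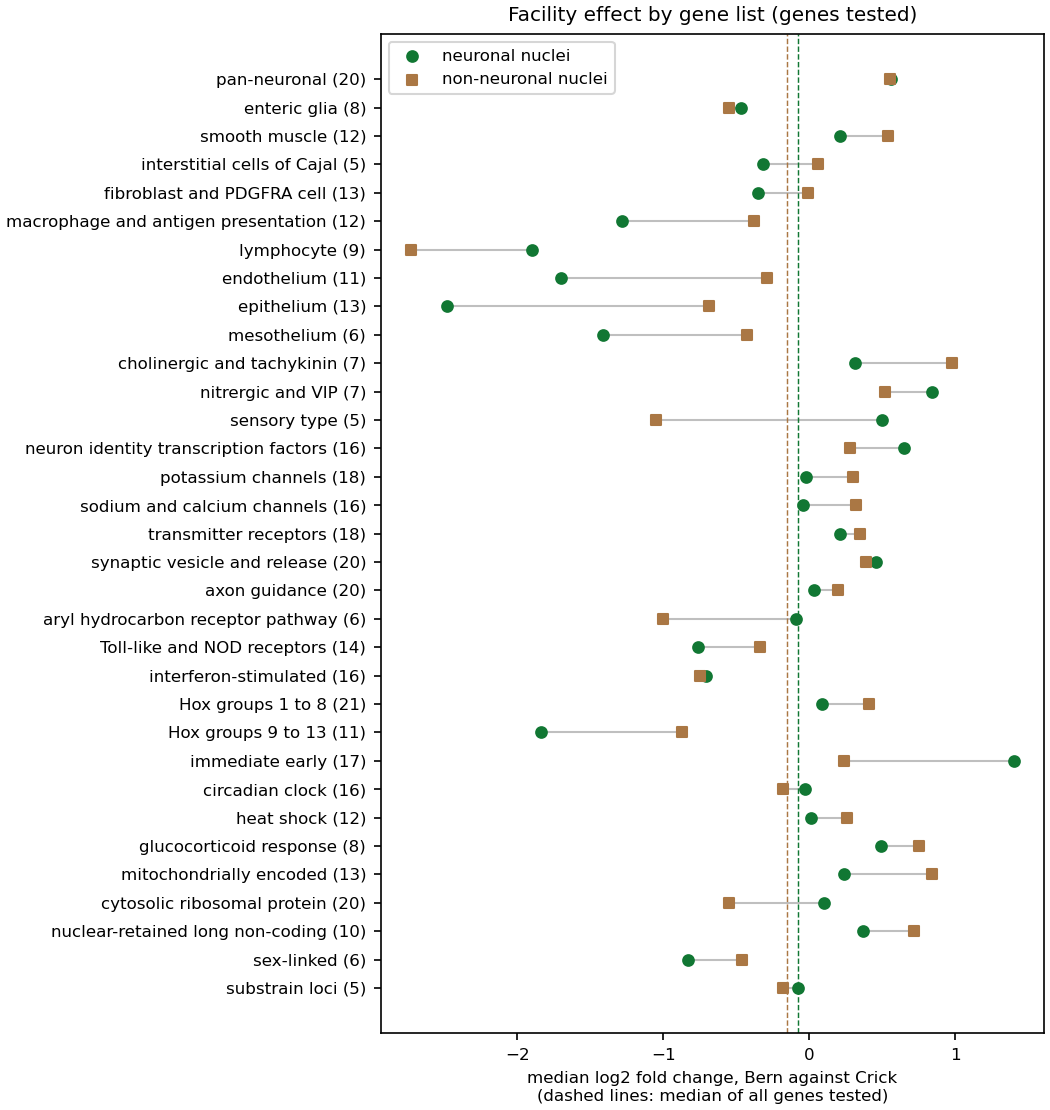
Points give the median log2 fold change of Bern against Crick in neuronal nuclei (green circles) and non-neuronal nuclei (brown squares) for each gene list with at least 5 genes tested (number in brackets), and dashed lines the medians of all genes tested. Immediate early genes stand furthest right in neuronal nuclei (1.40 against 0.24), epithelial markers furthest left in neuronal nuclei (-2.48) and lymphocyte markers in non-neuronal nuclei (-2.73).

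Lists of other cells and of RNA quality had no called interaction. Of 13 epithelial markers 5 were called lower in Bern neuronal nuclei (Cdh1, Krt19, Krt18, Epcam and Krt8) and 1 lower in non-neuronal nuclei (Krt8), against 2.7% and 9.25% of all genes called lower, with a median interaction of -1.62 log2, or -1.44 with empty groups at their floor, and the smallest adjusted p was 0.063 for Krt19. Without the 6 libraries that stood apart the median was -1.07. Limma-voom did not call Cdh1 (adjusted p = 0.0519), Epcam (0.18) or Krt18 (0.329) in neuronal nuclei, but called Krt19 (0.0135) and Krt8 (0.0356). The neuronal calls of Epcam and Krt8 were lost without Crick ColPos 4 (adjusted p = 0.0612 and 0.0574), and that of Krt18 without Crick ColPos 4 or SiPos 4 (0.101 and 1). Of 9 lymphocyte markers 6 were called lower in Bern non-neuronal nuclei, against the same 9.25%, and none in neuronal nuclei, and 2 without the 6 libraries that stood apart. Their sums were 217, 133, 1480 and 291 CPM in Crick ColNeg and 62.6 to 192 in Bern ColNeg. The SiNeg groups overlapped (103 to 386 CPM in Bern, 83.7 to 278 in Crick). Without Crick ColNeg 3 the calls of Cd79a and Ms4a1 were lost (adjusted p = 0.191 and 0.352). Ptprc lost its call without that library, Bern ColNeg 1 or Crick SiNeg 3 (0.0582 to 0.24), and Cd3e without Crick ColNeg 4 (0.0542). Among 10 nuclear-retained long non-coding RNAs none was called in the interaction, although 5 had an unadjusted p under 0.05, all lower, against 1275 lower of 21521 genes tested. The list's median interaction was -0.59, or -0.19 without the 6 libraries that stood apart. The largest in abundance, Malat1, had 24000, 24000, 26700 and 30700 CPM in Bern ColPos against 69100, 64400, 57300 and 60700 in Crick ColPos, and 48800, 39600, 38500 and 50900 in Bern SiPos against 66900, 52200, 57600 and 57100 in Crick SiPos. Bern was lower without overlap. Malat1 fell by 0.83 ± 0.13 log2 in neuronal nuclei (adjusted p = 0.000137) and was -0.17 ± 0.13 in non-neuronal nuclei (adjusted p = 0.384). Its interaction of -0.65 ± 0.18 had adjusted p = 0.0782, or 0.0346 with mitochondrially encoded genes left out.

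Among genes described whatever their value, none had a called interaction. Ahr, the receptor for aryl hydrocarbons that senses dietary and microbial ligands, had 84.8, 123, 193 and 105 CPM in Bern ColPos and 71.6, 72.8, 51.7 and 55.4 in Crick ColPos. In SiPos it had 24.9, 24.7, 4.65 and 1.75 CPM in Bern and 10.9, 6.69, 12.2 and 6.64 in Crick. The colon groups did not overlap and the SI groups did. Non-neuronal means of Ahr were 30.8 ± 22.2 and 27.5 ± 10 CPM in ColNeg and 13.2 ± 8.73 and 14.6 ± 6.05 in SiNeg, Bern first. The interaction was 0.81 ± 0.64 (adjusted p = 0.621), from 0.82 ± 0.46 in neuronal nuclei (adjusted p = 0.316) and 0.01 ± 0.46 in non-neuronal nuclei (adjusted p = 0.995), or -0.60 there without the 6 libraries that stood apart (adjusted p = 0.524). Of 6 tested genes of the aryl hydrocarbon receptor pathway, 0 had a called interaction by edgeR and 0 an unadjusted p under 0.05 for it. Pou3f3, a transcription factor of colonic neurons, had an interaction of 0.74 ± 0.90 (adjusted p = 0.781), which ran from -1.42 to 1.21 over the alternatives, and Nnt, the mitochondrial transhydrogenase that differs between C57BL/6 substrains, had -0.30 ± 0.66 (adjusted p = 0.915).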

How the data were processed

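Values are expected counts for each gene in 32 nuclear RNA libraries, deposited by the authors as 1 table. Per the submitters' processing notes, RSEM 1.3.0, STAR 2.5.2, DESeq2 1.10.1 and GRCm38 were used, with roles not given in the sources used here. The kit was NuGEN Ovation V2, per the labels' protocols, which does not mark strand, and reads were 75-base single ends. Totals were 2394481 to 8350833 estimated counts, and interval estimates cover the spread between 4 libraries a group.

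Expected counts were rounded and fitted with edgeR 4.0.16 (R 4.3.3) by its quasi-likelihood test over 8 group means, with TMM factors, filterByExpr and Benjamini-Hochberg adjustment over all genes at 0.05. Gene names came from the annotation (51719 of 51912 identifiers matched). Named genes were the 12 with the smallest p in each direction of the interaction that passed it with a log2 size of at least 1, the same sign in both segments, 5 CPM or more in a group and no predicted or clone symbol (12 of 22 higher and 8 of 8 lower met this), up to 6 called members of each list, 4 genes a direction of the segment difference, and Ahr, Pou3f3 and Nnt. Members and lists were chosen with earlier results of these data known. Alternatives were other scalings, DESeq2 1.42.0, limma-voom (limma 3.58.1), other filters, equal depth, no mitochondrially encoded genes, replicate blocks, 1 sort or segment alone and each library left out. Leaving out the 6 libraries that stood apart was added after seeing the data. The fit was tested on simulated data with 1 spread for each gene over all groups. That test therefore does not measure how many calls are missed or false in these data.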

Additional observations from a re-analysis of the deposited data

Results flagged for a closer look

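The interaction differed between colon and SI, by the test of the difference itself, for 9 genes. On the log2 scale, colon minus SI was -7.60 for Dscaml1, -4.36 for Gria4, -4.77 for Crmp1, -6.48 for Prr36 and -7.18 for Sgms2. It was -7.05 for Gm44230, -7.66 for A530058N18Rik, -5.89 for 4930480K15Rik and -8.37 for Gm37880, the last fitted with no count in Bern SiNeg and no bound.

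A library stood far from the other 3 of its group in 12 of 181 groups examined, where chance gives about 5%. Among genes with a called interaction these were Esm1 in Bern SiPos 4 (27.7 CPM), Fam177a in Crick ColNeg 4 (52.6 CPM), St8sia3 in Crick ColPos 4 (31.0 CPM) and in Crick SiPos 2 (36.8 CPM), Aldh3b1 in Bern SiPos 3 (31.0 CPM), Fam129a in Bern SiNeg 2 (101 CPM) and Mirt1 in Bern ColNeg 3 (29.9 CPM). The others were Crmp1 in Bern SiPos 2 (201 CPM), Ahr in Bern SiNeg 2 (0.398 CPM), the summed pan-neuronal markers in Bern SiNeg 1 (1520 CPM) and the summed macrophage markers in Crick ColNeg 3 (2660 CPM) and Crick SiNeg 1 (145 CPM).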

How the results depend on the processing

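For the interaction over both segments (44 genes), DESeq2 called 676, no filter on low counts 473, a stricter filter 69, limma-voom 39 (14 of them among the 44) and the fit without the 6 libraries that stood apart 143. Each replicate block, of facility and number or of facility, segment and number, called 11 genes, 9 of them among the 44 (Kcnh4, Hsd17b7, Thy1, St8sia3, Apobec1 and Fendrr under both). Of the 20 genes named for the interaction the blocks called 7 and 6, and Arc had adjusted p = 0.0602 and 0.0889. Gria4, Crmp1 and Prr36 were not called for the segment difference with the block of facility and number (0.0657, 0.0657 and 0.09). The numbers are not stated to pair libraries: same-numbered libraries of the 2 sorts correlated at 0.09 to 0.61 in Crick but 0 to 0.06 in Bern, and 23 of 32 libraries correlated best with their own number in the other sort. Xist and Y-linked genes had 1 pattern for each number of a facility, a hint from the data and not the design. The blocks were not used to test the facility effect within a sort. In colon (1 gene), library totals gave 3 calls, DESeq2 267, limma-voom 5, no filter 232, a stricter filter 2, the block of facility, segment and number 2, colon alone 4 and the fit without the 6 libraries 0. In SI (32), DESeq2 gave 506, no filter 226, equal depth 10, no mitochondrially encoded genes 21, the block of facility, segment and number 3, the fit without the 6 libraries 229 and SI alone 0. For the segment difference (9), RLE factors gave 5, DESeq2 330, limma-voom 0, no filter 205, no mitochondrially encoded genes 5, the block of facility and number 1 and the fit without the 6 libraries 57. In neuronal nuclei (1056), DESeq2 called 2092. In non-neuronal nuclei (3176), DESeq2 called 4952, limma-voom 5254, no filter 7803, equal depth 2114, non-neuronal libraries alone 1780 and the fit without the 6 libraries 2077. Genes called the same way in both sorts (490) were 831 with DESeq2 and 273 without the 6 libraries. The cause of these differences was not tested.

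Leaving out 1 library at a time gave 3 to 246 calls for the interaction, 0 to 8 in colon, 4 to 306 in SI, 1 to 192 for the segment difference, 669 to 1656 in neuronal nuclei, 2626 to 4080 in non-neuronal nuclei and 341 to 608 the same way in both. Upper-quartile scaling changed the split to 287 higher and 958 lower in neuronal nuclei and 763 and 2654 in non-neuronal nuclei, and leaving out mitochondrially encoded genes to 377 and 692 in neuronal nuclei. For the 24 named genes called in the interaction or the segment difference, none of 1053 alternative values of that quantity had the other sign, and 229 lost the call. Depth limits genes near 0 most: Bern libraries were shallower, and at equal depth 30 genes were called, 22 of them among the 44.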
